A study of Macaca fascicularis with 15 samples.

Results

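Central retina was compared with peripheral retina of the cynomolgus monkey (Macaca fascicularis) by RNA sequencing. The 4 samples of central retina and the 3 of peripheral retina were taken by the tissue named in their labels, and they are 7 of the 15 samples of the study. The other samples are of whole eye and whole retina. The tables used from them entered the estimate of gene variance and the choice of genes tested, but not the regional means. All samples are labelled wild type, no treatment is named, the tissue was kept in RNALater (a solution that preserves RNA), and each sample came from 1 eye. The tables of the central samples carry the word macula in their headers. The labels give no age, no size of the dissected area and no animal for these samples. Each p-value therefore reflects only the spread among the libraries used, whole eye and whole retina included, and that spread may be technical.

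The macula is the part of the primate retina that serves sharp and colour vision. Its ganglion cells, the neurons whose axons form the optic nerve, are stacked in several layers, its cones are packed most densely in the central pit, the fovea, and blood vessels leave the centre of that pit free. Towards the periphery rods prevail, ganglion cells thin out, and the neural retina ends at the ora serrata, where it continues as the nonpigmented epithelium of the ciliary body. Müller glia span the retina everywhere, and the pigment epithelium lies behind the photoreceptors.

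Each deposited table gives 1 normalized value per gene, without a stated unit, and "value" below means that quantity. Of 12995 entries kept, 11933 reached a group mean of 1 or more in some group, whole eye and whole retina included, and were tested. Log2 values correlated across genes at 0.968 to 0.986 among central libraries, 0.973 to 0.980 among peripheral libraries and 0.926 to 0.965 between the regions. Between 313 and 501 entries were listed at 0 in a library, most in central replicate 1. Absolute depth is unknown. The steps of low values put the other libraries at 65.1% to 86.3% of the depth of peripheral replicate 3, an estimate that can be off by a small whole factor, and central replicate 1 fitted 70.6% and 35.3% about equally well. Differences are central minus peripheral retina on the scale of log2(value + 1), which understates the change of low genes, with their standard error (SE). A gene is called higher or lower where limma's Benjamini-Hochberg adjusted p was under 0.05. Means are given ± SD, with n = 4 central against n = 3 peripheral libraries throughout. Some names begin with, or begin, another gene name in the tables, and values of such genes appear exchanged between names in part of the tables. These genes are marked below as sharing a name start.

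Of the 11933 genes tested, 1493 (12.5%) were called higher and 1045 (8.76%) lower in central retina, 21.3% in all. The median difference over all tested genes was −0.014. Differences of at least 1 on the log2 scale were reached by 322 of the higher and 194 of the lower genes, and of at least 2 by 28 and 32. With each of the 7 libraries left out in turn, 775 of the higher calls (6.49% of the genes tested) and 415 of the lower calls (3.48%) were kept in every fit. The higher calls numbered 829 without peripheral replicate 2, and the lower calls numbered 499 without peripheral replicate 2, 618 without peripheral replicate 1, 655 without central replicate 3 and 610 without central replicate 4. All 4 central libraries lay above all 3 peripheral ones in 19.0% of the tested genes and below them in 15.6%. Among the 1493 higher genes, peripheral replicate 2 had the lowest value of its group in 55.6% and central replicate 4 the highest of its group in 58.5%. Among the 1045 lower genes, central replicate 2 was the highest central library in 56.1% and central replicate 4 the lowest in 52.8%.

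**Figure D1:**
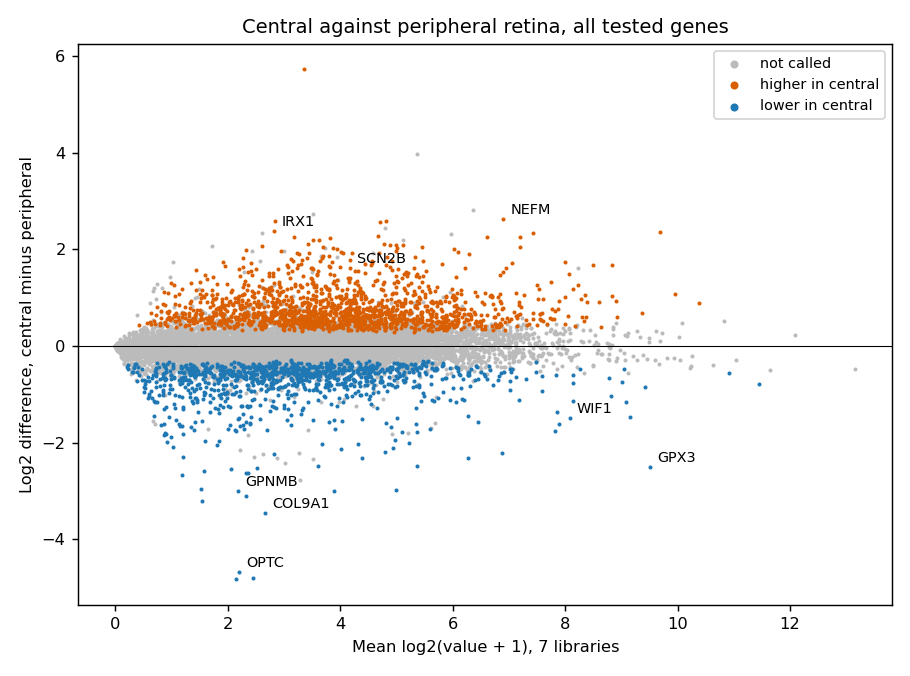
Mean log2(value + 1) over the 7 libraries (horizontal axis) against the fitted log2 difference, central minus peripheral retina (vertical axis), for the 11933 tested genes. Orange points are the 1493 genes called higher in central retina, blue points the 1045 called lower and grey points the rest, and the labelled genes reach from NEFM at 2.63 to OPTC at −4.68.

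Ganglion cell genes were higher in central retina as a group: 11 of 13 tested members were called higher (84.6%, background 12.5%) and 0 lower by limma, and an unadjusted p under 0.05 gave the same counts. The median difference was 1.85 against −0.014 over all genes. All 11 calls were kept whichever library was left out, and 3 of the 13 names share a start. In bulk tissue, fewer cells of a type and less RNA per cell cannot be told apart, here and in the comparisons that follow. The summed level of the 13 genes was 2219 to 4193 in the central and 455.7 to 777 in the peripheral libraries. SNCG, 1 of the 13, weighs heavily in these sums. It alone measured 1217, 1396, 1802 and 2510 in the central and 388, 214 and 415 in the peripheral libraries. NEFM, the medium chain of neurofilaments, the struts of thick axons, measured 219, 237, 222 and 391 in the central and 57.7, 31.4 and 38.1 in the peripheral libraries. Its means differed 6.3-fold, with a fitted difference of 2.63 ± 0.24 (SE; limma adjusted p = 7.76e-05). The groups lay far apart, with central replicate 4 highest and peripheral replicate 2 lowest.

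Transcription factor genes of ganglion cell identity were on the same side as the axonal genes. POU4F3, of the same homeobox class as POU4F2, measured 3.37, 3.55, 3.49 and 4.18 in the central and 0.82, 0.59 and 0.65 in the peripheral libraries, a ratio of 5.31 (limma adjusted p = 5.43e-05). POU4F2 itself measured 13, 18.7, 15 and 17.9 against 4.84, 2.59 and 3.53. For both genes each central library stood above each peripheral one. NRN1, which encodes neuritin, a surface protein that promotes neurite growth, measured 57.5, 82, 80.9 and 107 against 23.7, 13.3 and 20.1 (ratio 4.3). THY1, a surface glycoprotein long used to mark these cells (sharing a name start), measured 225, 254, 246 and 380.1 against 85.3, 45.6 and 68.5. EOMES, a transcription factor gene of a subset of ganglion cells, measured 3.1, 4.55, 4.22 and 4.07 against 1.55, 1.43 and 1.58, a smaller ratio of 2.62. THY1 and EOMES were named after their values were seen. The members that did not pass were ISL2, a homeobox gene, at 4.73 ± 0.561 against 3.93 ± 0.0624 (limma adjusted p = 0.223), and OPN4, the melanopsin of light-sensing ganglion cells, at 2.19 ± 0.577 against 1.82 ± 0.487 (limma adjusted p = 0.495).

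**Figure D2:**
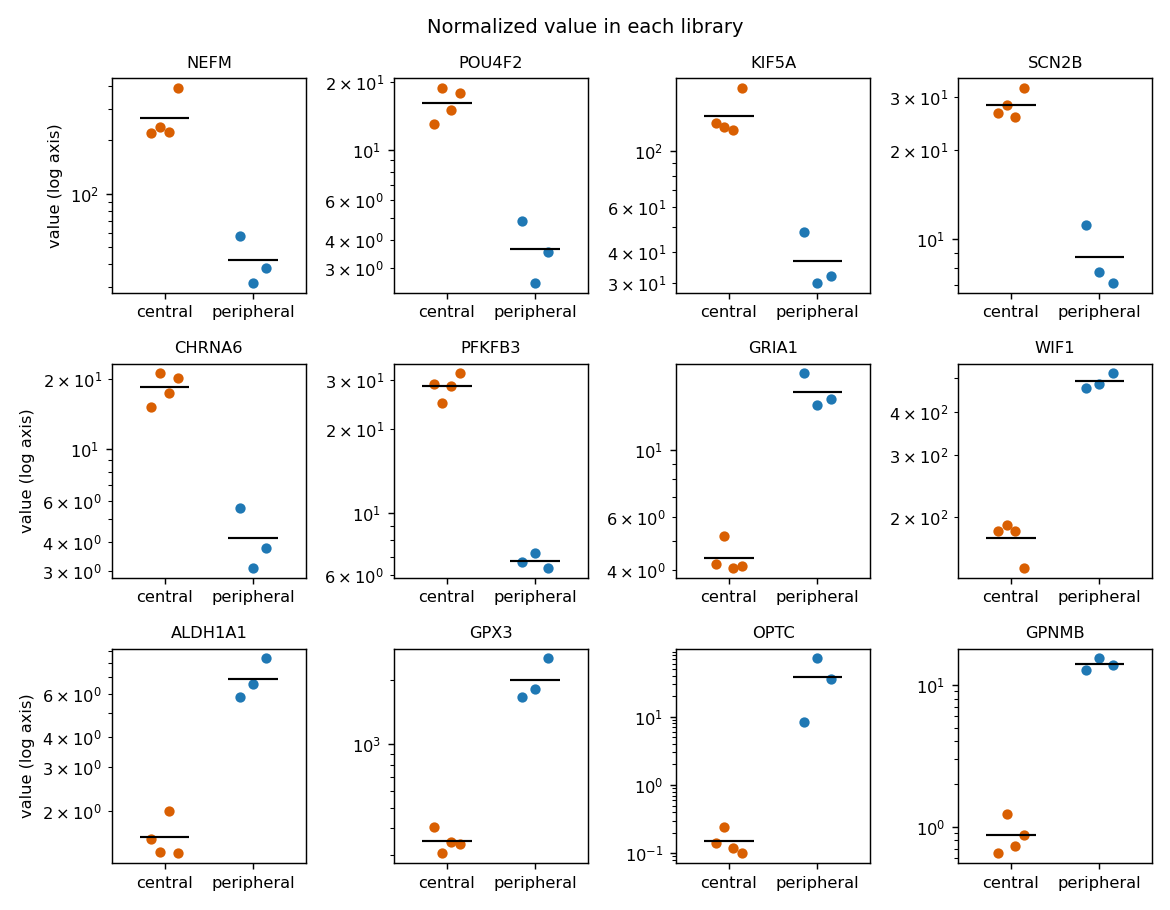
Value of 12 genes in each of the 7 libraries, on a logarithmic vertical axis, 1 panel per gene; orange circles are the 4 central and blue circles the 3 peripheral libraries, and bars mark the group means. In NEFM, POU4F2, KIF5A, SCN2B, CHRNA6 and PFKFB3 all central points lie above all peripheral ones, and in GRIA1, WIF1, ALDH1A1, GPX3, OPTC and GPNMB all lie below.

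Genes of neurofilaments, microtubules and axonal transport were higher in 20 of 33 tested members (60.6%, background 12.5%) and lower in 1 (3.03%, background 8.76%), with a median of 0.57. Of these 21 calls, 16 were kept whichever library was left out. KIF5A, a motor protein that carries cargo along axons, measured 129.8, 125, 122 and 178 in the central and 48, 30.1 and 32.1 in the peripheral libraries (ratio 3.77, limma adjusted p = 0.000226). STMN2, a regulator of microtubules in growing axons, averaged 225 ± 50.4 against 66.8 ± 12.1, and MAPT, the microtubule protein tau, averaged 23.9 ± 3.26 against 10.02 ± 1.52. KIF3C, another motor, averaged 45.8 ± 3.34 against 23.5 ± 1.4. The single lower member, the tubulin gene TUBB2B (sharing a name start), averaged 18.6 ± 2.24 against 28.4 ± 1.22 and was named after its values were seen. The dynein light chain gene DYNLL1 did not pass, at 136 ± 12.9 against 152 ± 33.4 (limma adjusted p = 0.513).

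Genes that let axons find their way and adhere were called in both directions. Of 32 tested guidance and adhesion receptors, 9 were higher (28.1%, background 12.5%) and 4 lower (12.5%, background 8.76%), with a median of 0.11, and 8 of these 13 calls were kept whichever library was left out. L1CAM, an adhesion molecule of long axons, measured 41.3, 41.8, 44.4 and 55.2 in the central and 15.8, 10.6 and 14.8 in the peripheral libraries (ratio 3.32, limma adjusted p = 0.000101). CNTN2, an axonal contactin, averaged 4.31 ± 0.161 against 1.84 ± 0.318. Of the ephrin receptor genes, EPHA6 at 3.24 ± 0.528 against 1.02 ± 0.332 and EPHA4 at 13.7 ± 1.13 against 7.81 ± 0.409 were higher, while EPHA2 at 0.95 ± 0.154 against 2.04 ± 0.205 was lower. Of 28 guidance ligand genes, 4 were higher (14.3%; SLIT2, SEMA3E, EFNA3 and SEMA3C) and 3 lower (10.7%; SEMA3B, RGMA and EFNB1), shares near the background, with a median of 0.03. SEMA3C was named after its values were seen. Of these 7 calls, those on EFNA3, an ephrin gene at 9.16 ± 1.38 against 5.02 ± 0.185, and SEMA3B, a semaphorin gene at 6.02 ± 0.861 against 11.4 ± 2.45, were kept whichever library was left out, and the other 5 were not.

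Genes of the voltage-gated channels that carry action potentials were among the higher ones. Of 19 tested sodium and calcium channel genes, 7 were higher (36.8%, background 12.5%) and 0 lower by limma, and an unadjusted p under 0.05 gave 8 higher and 0 lower, with a median of 0.16. SCN2B, a beta subunit that sets the gating and placement of sodium channels, measured 26.5, 28.2, 25.8 and 32.2 in the central and 11.2, 7.76 and 7.13 in the peripheral libraries, a ratio of 3.24 (limma adjusted p = 0.000119). The pore-forming subunit genes SCN1A, SCN2A and SCN8A were higher as well, at ratios of 2.56, 1.74 and 2.63. SCN8A, the sodium channel of mature axon segments, measured 12.9, 12.8, 12.5 and 14.7 against 6.69, 4.25 and 4.14. The calcium channel gene CACNA1A, of fast transmitter release in spiking neurons, averaged 7.73 ± 0.587 against 3.12 ± 0.75. CACNA1F, the calcium channel of photoreceptor terminals, did not pass, at 82.6 ± 7.71 against 96.5 ± 7.55 (limma adjusted p = 0.319).

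Among 41 tested potassium and HCN channel genes, 16 were higher (39.0%, background 12.5%) and 3 lower (7.32%, background 8.76%), with a median of 0.26. The higher members numbered 10 without peripheral replicate 2 and 9 without peripheral replicate 3, and the lower members 1 without central replicate 4 or any 1 of the peripheral libraries. KCNA2, which shapes firing along axons, measured 33.2, 36.3, 36.7 and 37.2 against 18, 11.4 and 12. KCNC1, of fast-spiking neurons, averaged 37.7 ± 6.72 against 16.1 ± 2.1. The beta subunit gene KCNAB2 averaged 67.8 ± 6.01 against 24.1 ± 3.5, the leak channel gene KCNK9 averaged 6.48 ± 1.37 against 1.48 ± 0.51, and KCNJ9, of the G-protein-gated channels, averaged 27 ± 1.4 against 15.3 ± 0.606. For these 5 genes no central library overlapped a peripheral one. Among the lower members were KCNJ13 (sharing a name start) and KCNIP2, the latter named after its values were seen. KCNV2, a subunit of the photoreceptor potassium current, averaged 402 ± 69.6 against 482 ± 14.6 and did not pass (limma adjusted p = 0.192).

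Of 22 tested acetylcholine and monoamine receptor genes, 8 were higher (36.4%, background 12.5%) and 1, CHRNB1, lower, with a median of 0.29. CHRNA6, a nicotinic receptor subunit gene, measured 15.1, 21.1, 17.4 and 20.1 in the central and 5.61, 3.09 and 3.75 in the peripheral libraries (ratio 4.44, limma adjusted p = 0.000108). Its relatives CHRNA4, CHRNB3 and CHRNB2 averaged 23.6 ± 5 against 5.65 ± 0.982, 15 ± 3.91 against 4.04 ± 1.48 and 21.9 ± 2.32 against 11.2 ± 1.76. These subunits form receptors of the neuronal type, while CHRNB1 belongs to the muscle type and was named after its values were seen. The call on CHRNB1 was lost in 6 of the 7 fits with a library left out, with limma adjusted p reaching 0.123. Without peripheral replicate 2, 5 members were higher. HTR1B, a serotonin receptor gene, measured 6.14, 7.24, 9.47 and 10.02 against 1.6, 0.8 and 1.59 (ratio 6.18). The dopamine receptor gene DRD4 did not pass, at 286 ± 48.3 against 320.2 ± 43.4 (limma adjusted p = 0.579).

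Of 14 tested GABA and glycine receptor genes, 5 were higher (35.7%, background 12.5%) and 0 lower by limma, with a median of 0.20. An unadjusted p under 0.05 gave the same counts. GLRB, the glycine receptor subunit that anchors the channel at synapses, averaged 22.1 ± 4.66 against 10.5 ± 1.05, and GABBR1, of the metabotropic GABA receptor, averaged 63.5 ± 5.94 against 33.6 ± 4.2. The other higher members were GLRA1, GLRA2 and GABRB2, and the calls on GLRA2 and GABRB2 were each lost without at least 1 library, leaving 3 higher members without peripheral replicate 3. Of 16 glutamate receptor genes, 6 were higher (37.5%, background 12.5%) and 1 lower (6.25%, background 8.76%), with a median of 0.23. The genes of AMPA receptors, the fast glutamate channels, split: GRIA2, GRIA3 and GRIA4 were higher, at ratios of 1.61, 1.51 and 1.69, while GRIA1 was lower. GRIA1 measured 4.18, 5.17, 4.05 and 4.1 in the central and 18.1, 14.1 and 14.8 in the peripheral libraries, 3.58 times as much in peripheral retina (limma adjusted p = 4.51e-05). The calls on GRIA2, GRIA3 and GRIA4 were each lost without 1 or more of the libraries, with limma adjusted p reaching 0.067 for GRIA2 without peripheral replicate 3, and 0.0811 and 0.0946 for GRIA3 and GRIA4 without peripheral replicate 2. The call on GRIA1 was kept in every such fit, whereas the higher members of the list numbered 1 without peripheral replicate 2 and 2 without peripheral replicate 3.

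Genes of the interneurons between photoreceptors and ganglion cells were called at shares near the background or, in the short horizontal cell list, on a single gene. Of 15 bipolar cell genes, 2 were higher (13.3%; GNAO1, a G protein subunit of the light response of ON cells, and PCP2, sharing a name start) and 1 lower (6.67%; OTX2, which photoreceptors use too), with a median of 0.10. Their summed level was 854.3 to 995.2 in the central and 718.4 to 741.6 in the peripheral libraries. GNG13, a G protein gamma subunit gene of ON bipolar cells, averaged 126 ± 9.93 against 124 ± 22.8 (limma adjusted p = 0.854). Of 18 amacrine cell genes, 1 was higher (5.56%; PAX6) and 2 lower (11.1%; VIP, sharing a name start, and SLC17A8), with a median of −0.17 and a summed level of 246.5 to 276.1 against 254.4 to 279.4. GAD1, which makes GABA, averaged 31.1 ± 1.25 against 35.7 ± 5.11 (limma adjusted p = 0.239). Of 5 horizontal cell genes, 1 was higher (20%; SPTB, sharing a name start), and CALB1, the calbindin of these cells and of other neurons, averaged 113 ± 28.8 against 126 ± 29.6 (limma adjusted p = 0.662). The calls on OTX2, PAX6, VIP and SLC17A8 were each lost without at least 1 library.

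BDNF, a growth factor that supports ganglion cells, measured 4.81, 8.14, 4.99 and 7.35 in the central and 2.26, 1.41 and 1.32 in the peripheral libraries (ratio 3.8, limma adjusted p = 0.000365). Of the 29 tested FGF and neurotrophin pathway genes, 5 were higher (17.2%, background 12.5%) and 4 lower (13.8%, background 8.76%), with a median of −0.06. Of the 29 names, 16 share a start. The higher members numbered 1 without peripheral replicate 2 and 3 without peripheral replicate 3, and the lower members 2 without any 1 of the peripheral libraries or central replicate 4. The FGF receptor gene FGFR1 and the low-affinity neurotrophin receptor gene NGFR, both sharing a name start, were lower, at 11.8 ± 0.991 against 24.8 ± 0.987 and 14.7 ± 4.61 against 28 ± 1.36. Of 19 neuropeptide and granule genes, 3 were higher (15.8%, background 12.5%) and 2 lower (10.5%, background 8.76%; TRH and VIP, both sharing a name start), with a median of −0.04. The higher ones were CHGA, a granin of secretory granules at 90.3 ± 17.4 against 38.8 ± 5.74, its relative CHGB at 71.2 ± 6.9 against 51.8 ± 3.5, and the processing enzyme gene PCSK1 (sharing a name start). The calls on CHGB, PCSK1 and VIP were each lost without at least 1 library. Of 16 genes of calcium-binding proteins, 1 was higher (6.25%, background 12.5%) and 5 lower (31.2%, background 8.76%). The higher one was S100A10 (sharing a name start). Among the lower ones were RCVRN, the recoverin of photoreceptors, at 1636 ± 168 against 2421 ± 314, and S100A4, at 0.542 ± 0.209 against 2.15 ± 0.581. Of these 6 calls, those on S100A10 and S100A4 were kept whichever library was left out.

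Rod genes were lower and cone genes higher by smaller steps than the ganglion cell genes. Of 13 rod genes, 6 were lower (46.2%, background 8.76%) and 0 higher by limma (8 and 0 at an unadjusted p under 0.05), with a median of −0.49. Of these 6 calls, that on CNGA1 was kept whichever library was left out, and those on SAG, NR2E3, GNGT1, PDE6A and SLC24A1 were not. Lower members numbered 1 without peripheral replicate 2, 2 without peripheral replicate 3 or central replicate 4, and 3 without peripheral replicate 1 or central replicate 3. Of 16 cone genes, 4 were higher (25.0%, background 12.5%) and 0 lower, where an unadjusted p under 0.05 gave 5 higher and 1 lower, with a median of 0.21. Those 4 were RXRG, OPN1SW, SLC24A2 and OPN1LW, and the call on OPN1LW was lost without peripheral replicate 2 (limma adjusted p = 0.0636).

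Rods and cones use separate copies of most proteins that turn light into a signal, so each rod gene can be set against its cone partner within a library. Of 12 such pairs, chosen with earlier results of these data known, 11 had both genes. The mean log2 ratio of cone to rod value was higher in central than in peripheral retina in 10 of the 11, by a median of 0.80, with a range of −0.21 to 1.72. In 6 of the 11 pairs every central library lay above every peripheral one, in 0 every central library lay below, and in 5 they overlapped. Such a ratio is free of the scaling of a library. PDE6C stands in 2 of these pairs, so the pairs are not independent.

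The ratio of CNGA3 to CNGA1, the main subunits of the cone and rod channels that open with cyclic GMP, was −3.87, −3.62, −3.71 and −3.70 in the central and −4.89, −5.43 and −4.73 in the peripheral libraries on the log2 scale. The 4 central libraries lay within a narrow band above the peripheral ones. CNGA1 was the member called lower, at 149.8, 164, 146 and 120.3 against 277, 306 and 250.3, while CNGA3 did not pass, at 11 ± 1.71 against 8.62 ± 1.33 (limma adjusted p = 0.154). The ratio of GNGT2 to GNGT1, the gamma subunits of cone and rod transducin, was 1.04, 0.94, 0.39 and 0.56 in the central and −0.19, −0.70 and −0.98 in the peripheral libraries. GNGT1 measured 94.5, 98.8, 106 and 94 against 163, 204 and 189.8, without overlap. The exchanger pair differed through both members: SLC24A2, of cones, averaged 27.1 ± 2.09 against 15.9 ± 4 and was called higher, and SLC24A1, of rods, averaged 116 ± 20.3 against 161 ± 11.5 and was called lower. RXRG over NRL, transcription factor genes of cones and rods, gave the widest difference, 1.72.

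Pairs whose libraries overlapped between the regions were CNGB3 with CNGB1, GRK7 with GRK1, GNAT2 with GNAT1, GNB3 with GNB1 (sharing a name start) and PDE6C with PDE6B. For GRK7 and GRK1, the kinases that shut off the opsins, the difference was 0.02. CNGB3 with CNGB1 gave −0.21, with CNGB3 at 4.92 ± 1.27 against 6.95 ± 1.03 (limma adjusted p = 0.101). Central replicate 2 had the highest cone to rod ratio of the central libraries in 9 of the 11 pairs. OPN1LW, the opsin of long-wavelength cones, measured 371, 408, 306 and 425 against 285, 225 and 238. Its near-identical medium-wavelength copy can share its reads, so this value is uncertain.

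**Figure D3:**
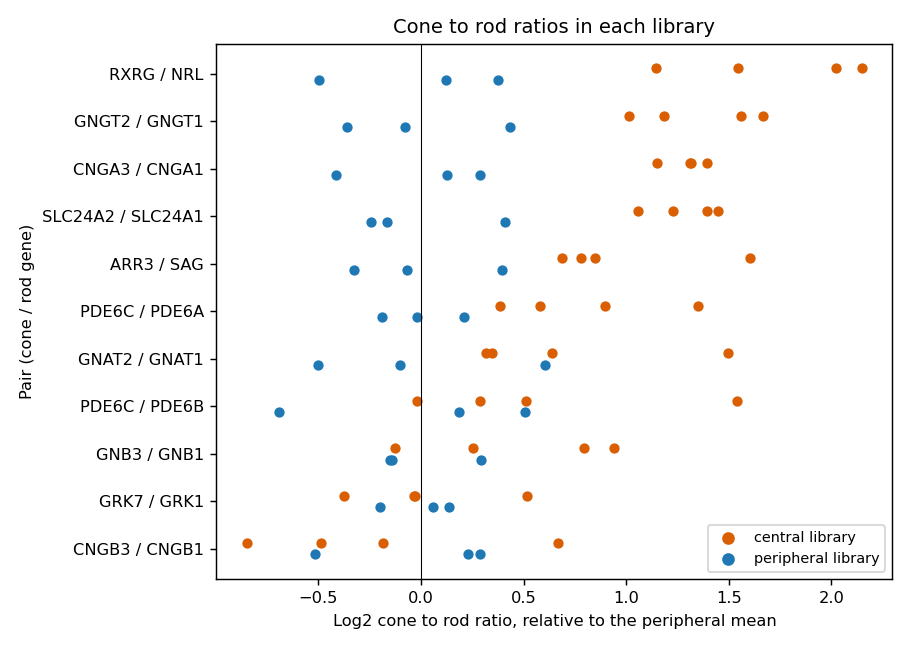
Log2 ratio of the cone gene to the rod gene in each library for 11 pairs, each shown relative to the mean of its 3 peripheral libraries (horizontal axis); orange circles are central and blue circles peripheral libraries. In 6 pairs all 4 central libraries lie to the right of all 3 peripheral ones, and the mean differences run from −0.21 for CNGB3 with CNGB1 to 1.72 for RXRG with NRL.

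Müller glia genes were lower in central retina: 14 of 20 tested members were called lower (70.0%, background 8.76%) and 0 higher by limma (16 and 0 at an unadjusted p under 0.05), with a median of −0.76. Of the 14 calls, 11 were kept whichever library was left out. Their summed level was 2822 to 3408 in the central and 5292 to 6339 in the peripheral libraries. PTGDS, a prostaglandin synthase of glia and pigment epithelium, measured 353, 426, 329.5 and 426 against 855, 791 and 925. CRYM, a crystallin that binds thyroid hormone, measured 46.1, 37, 51.9 and 52 against 84.2, 96.8 and 144. VIM, the intermediate filament vimentin (sharing a name start), measured 137, 155, 116 and 128 against 464, 399 and 510.3. In these 3 genes the regions did not overlap, and each was at least 2 times as high in peripheral retina by its means (2.23, 2.31 and 3.42 times). GLUL, glutamine synthetase, by which these cells clear glutamate, did not pass, at 572 ± 67.3 against 696 ± 68.7 (limma adjusted p = 0.148), nor did SOX9, a glial transcription factor gene, at 22.2 ± 1.44 against 27.8 ± 4.08 (limma adjusted p = 0.0954).

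Of 6 astrocyte genes, 3 were lower (50%, background 8.76%) and 1, the glycolytic ALDOC, higher (16.7%, background 12.5%). The lower ones were ALDH1L1, GJA1 (sharing a name start) and AQP4, which also stands in the Müller glia list. AQP4, the water channel of astrocytes and Müller glia, measured 12, 27.8, 16.5 and 10.1 against 49.6, 28.2 and 28.4. Its call was kept in 4 of the 7 fits with a library left out, with limma adjusted p reaching 0.106 without peripheral replicate 1. Of 9 oligodendrocyte genes, 1 was higher (11.1%, background 12.5%) and 1 lower (11.1%, background 8.76%). The higher one was UGT8, which makes a myelin lipid, at 3.21, 5.47, 3.65 and 4.43 against 1.31, 0.69 and 0.77. The summed level of the 9 genes was 24.12 to 33.33 in the central and 23.13 to 34.39 in the peripheral libraries.

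Secreted inhibitors of Wnt signals were among the lower genes. Of 34 tested Wnt pathway genes, 12 were lower (35.3%, background 8.76%) and 3 higher (8.82%, background 12.5%), with a median of −0.18. FRZB, a secreted protein that binds Wnt ligands, measured 137, 238, 157 and 109 in the central and 464, 324 and 421 in the peripheral libraries, 2.51 times as much in peripheral retina (limma adjusted p = 0.00178). WIF1, another secreted inhibitor, measured 182, 189, 182 and 142 against 469.6, 482 and 516. SFRP4, of the same family as FRZB, was near 0 in central retina, at 0.2, 0.05, 0.06 and 0.01 against 2.25, 2.46 and 2.35. NDP, the ligand norrin that directs the growth of retinal vessels, averaged 5.19 ± 0.743 against 10.1 ± 0.681. The higher members were the ligand genes WNT6 at 2.27 ± 0.448 against 0.433 ± 0.146 and WNT10A at 8.29 ± 0.203 against 4.1 ± 1.01, and NKD1, named after its values were seen. WIF1 and FRZB also stand in the Müller glia list, whose summed level was lower in the same libraries (given above), and its part in the Wnt values was not tested.

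Of 42 BMP and TGF-beta pathway genes, 9 were lower (21.4%, background 8.76%) and 3 higher (7.14%, background 12.5%), with a median of −0.14. The lower members numbered 7 to 11 with a library left out and the higher ones 1 without peripheral replicate 2, and 6 of the 12 calls were kept whichever library was left out. The ligand gene BMP4, a dorsal signal of the developing eye, averaged 2.62 ± 1.05 against 7.3 ± 0.85, and the receptor gene BMPR1B averaged 2.39 ± 0.463 against 5.87 ± 0.27. The antagonist gene NOG averaged 0.35 ± 0.123 against 1.68 ± 0.68, and ID1, a target gene of the pathway, averaged 4.92 ± 0.566 against 9.87 ± 2.92. SMAD9, a signal transducer, went the other way, at 20.9, 18.3, 19.6 and 21 against 12.1, 12.2 and 11.9. Of 8 Notch pathway genes, JAG2 was higher (12.5%, background 12.5%) and NOTCH2 and HEY2 lower (25%, background 8.76%). Each of these 3 calls was lost without at least 1 library, with limma adjusted p reaching 0.0652, 0.0844 and 0.11.

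Of 15 tested retinoic acid pathway genes, 8 were lower (53.3%, background 8.76%) and 1, RXRG, higher, with a median of −0.54. The lower members numbered 5 without central replicate 1 and 5 without peripheral replicate 3. RDH10, which makes retinal from retinol, measured 24.9, 24.8, 16 and 15 against 93.7, 73.3 and 79.1. ALDH1A3 and ALDH1A1 make retinoic acid from retinal. ALDH1A3 measured 3.15, 4.38, 2.25 and 2.01 against 10.1, 11.3 and 14.7, and ALDH1A1 measured 1.53, 1.35, 2 and 1.34 against 5.84, 6.55 and 8.36. In RDH10, ALDH1A3 and ALDH1A1 every central library lay below every peripheral one, with peripheral means 4.07, 4.08 and 4.45 times as high. ALDH1A2, a relative of the same step named after its values were seen, was near 0 and did not pass, at 0.142 ± 0.0608 against 0.36 ± 0.24 (limma adjusted p = 0.242). CYP26A1, which breaks down retinoic acid, did not pass either, with the central mean the higher one, at 6.77, 9.21, 11.7 and 9.42 against 4.16, 1.83 and 10.8 (limma adjusted p = 0.128). STRA6, which takes up retinol into pigment epithelium, averaged 5.89 ± 1.52 against 16.2 ± 3.52. The receptor gene RARB was lower, at 4.76 ± 1.01 against 9.61 ± 0.954, while RARA and RXRA did not pass, at 24.7 ± 2.98 against 20.5 ± 1.77 and 14.4 ± 1.2 against 12.3 ± 0.376 (limma adjusted p of 0.168 and 0.245).

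Transcription factor genes that pattern the retina were called in both directions, 7 higher (24.1%, background 12.5%) and 9 lower (31.0%, background 8.76%) of 29 tested. The higher members numbered 3 without peripheral replicate 2, and the lower ones 8 or 9 whichever library was left out. Of the Iroquois homeobox genes, IRX1, IRX4, IRX5 and IRX6 were higher. IRX1 measured 11.6, 12.1, 13.2 and 16.7 against 2.2, 1.12 and 2.1, and IRX6 measured 4.31, 5.27, 5.43 and 7.55 against 2.81, 1.88 and 2.95. IRX4 was near 0 in peripheral retina, at 1.12, 1.01, 0.98 and 1.45 against 0.22, 0.12 and 0.3. IRX5 averaged 6.74 ± 0.89 against 4.19 ± 0.505 and was named after its values were seen. Its call was lost without at least 1 library, with limma adjusted p reaching 0.0611 without peripheral replicate 1. On the lower side the LIM homeobox gene LHX9 averaged 2.39 ± 0.953 against 6.83 ± 0.254, and ZIC1 and ZIC2, zinc finger genes of the early retinal margin, averaged 0.36 ± 0.153 against 3.39 ± 1.27 and 1.16 ± 0.366 against 4.63 ± 1.3. RAX, an eye field gene, did not pass, at 33.7 ± 2.78 against 42.3 ± 5.86 (limma adjusted p = 0.0693).

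**Figure D4:**
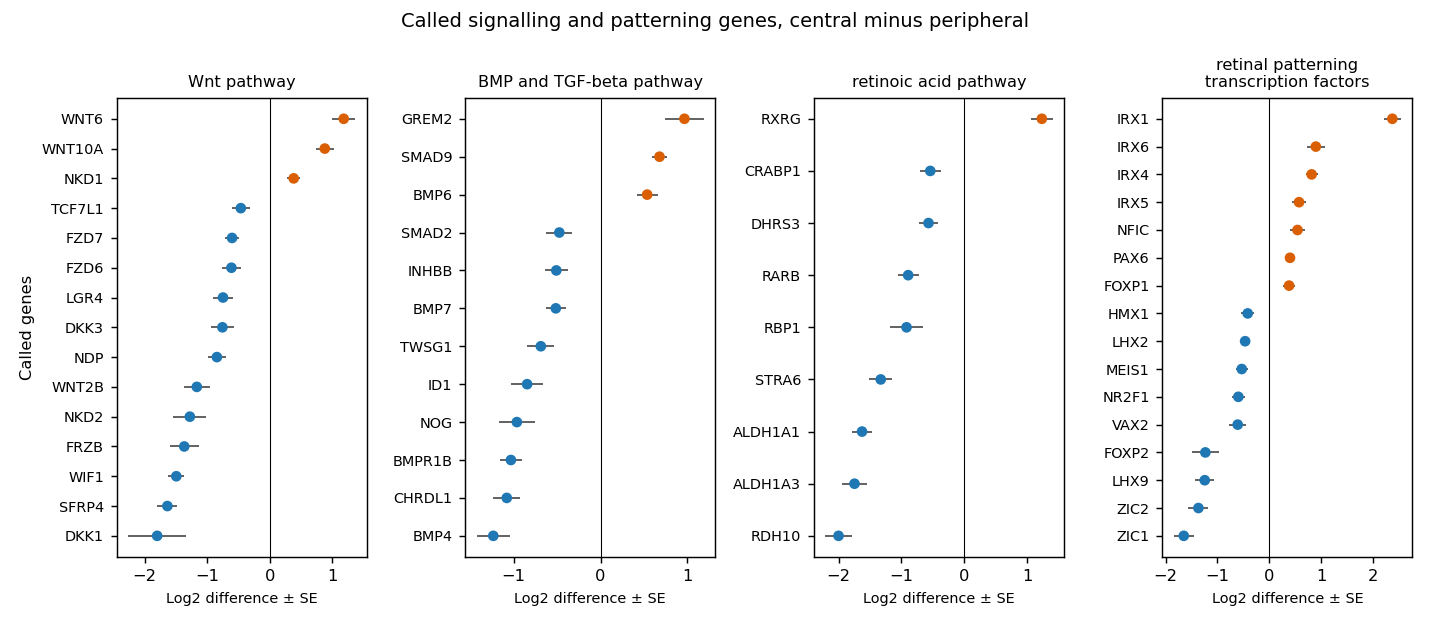
Fitted log2 difference, central minus peripheral retina, with its standard error (bars), for the called members of the Wnt, BMP and TGF-beta, retinoic acid and retinal patterning lists; orange is higher and blue lower in central retina. Of the called genes, 12 of 15 Wnt, 9 of 12 BMP and TGF-beta, 8 of 9 retinoic acid and 9 of 16 patterning genes lie on the lower side.

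Of 21 tested entries of glycolysis and lactate handling, 11 were higher (52.4%, background 12.5%) and 1 lower (4.76%, background 8.76%), with a median of 0.63. Of the higher entries, 2 carry the same name. SLC16A3, a transporter that exports lactate, measured 41.8, 46.1, 50.3 and 64.5 in the central and 14.1, 11.6 and 16.8 in the peripheral libraries (ratio 3.58, limma adjusted p = 7.68e-05). SLC16A8, the lactate transporter of the pigment epithelium, was the lower member, at 5.01 ± 2.03 against 14.5 ± 2.06, and was named after its values were seen. The glucose transporter gene SLC2A3, of neurons, averaged 27 ± 3.87 against 12 ± 2.19, and the enzyme gene TPI1 averaged 49.7 ± 7.57 against 25.8 ± 4.32. The enzyme gene ENO1 did not pass, at 566 ± 121 against 656 ± 167 (limma adjusted p = 0.48). Of 18 hypoxia-response genes, 6 were higher (33.3%, background 12.5%) and 1 lower (5.56%, background 8.76%), with a median of 0.10. The higher members numbered 3 without central replicate 3 or 4 or peripheral replicate 1 or 2. PFKFB3, which speeds up glycolysis, measured 29.1, 24.8, 28.7 and 31.8 against 6.67, 7.2 and 6.37, a ratio of 4.24. EGLN3, an oxygen sensor, averaged 26 ± 6.99 against 9.69 ± 2.57. The hypoxia-inducible factor genes did not pass: EPAS1 averaged 54.2 ± 4.55 against 63.1 ± 5.25 (limma adjusted p = 0.255) and HIF1A (sharing a name start) 39.9 ± 5.53 against 44.9 ± 7.21 (limma adjusted p = 0.49).

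Of 23 antioxidant and metal-binding genes, 3 were higher (13.0%, near the background of 12.5%) and 5 lower (21.7%, background 8.76%), with a median of −0.16. Single members differed widely in both directions, and 5 of these 8 calls were kept whichever library was left out. MT3, a metallothionein of neural tissue that binds zinc and copper, measured 159.9, 118, 178 and 383 in the central and 37.1, 32.9 and 47.2 in the peripheral libraries (ratio 5.37, limma adjusted p = 0.000704). GPX3, a secreted glutathione peroxidase, measured 408, 306, 345 and 338 against 1679, 1817 and 2540.1, 5.76 times as much in peripheral retina (limma adjusted p = 1.97e-05). GPX1, the cytosolic enzyme, averaged 5.9 ± 0.693 against 13.2 ± 4.53, while GPX4 averaged 401 ± 91.4 against 338 ± 51.7 and did not pass (limma adjusted p = 0.369). Of 14 cholesterol synthesis genes, 2 were higher (14.3%, near the background of 12.5%) and 0 lower by limma. An unadjusted p under 0.05 gave 5 higher and 1 lower. Among the 2 called was SREBF2, the factor that turns the pathway on, at 86, 83.8, 88 and 85.7 against 54.8, 42.6 and 50.5. Of 7 genes of carotenoid handling, 1 was higher (14.3%, background 12.5%) and 2 were lower (28.6%, background 8.76%). The lower ones were BCO2, which cleaves carotenoids, at 9.92, 8.16, 9.59 and 7.13 against 14.8, 23.2 and 20.1, and APOE, at 537 ± 78.6 against 959.7 ± 134. The zeaxanthin-binding protein gene GSTP1 did not pass, at 292 ± 86.1 against 262 ± 48.4 (limma adjusted p = 0.73).

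Among the genes without a shared name start that the naming rule allows, the 3 with the largest differences towards the periphery, OPTC, COL9A1 and COL2A1, stand in the list of the retinal margin. That list, like the others, was chosen with earlier results of these data known, so their place in it adds no support. Of 9 tested genes of nonpigmented ciliary epithelium and vitreous matrix, 7 were lower in central retina (77.8%, background 8.76%) and 0 higher by limma (8 and 0 at an unadjusted p under 0.05), with a median of −1.37. Their summed level was 16.52 to 23.83 in the central and 70.57 to 152.9 in the peripheral libraries. The highest of these sums, that of peripheral replicate 2, holds OPTC at 72. OPTC, the vitreous protein opticin, measured 0.14, 0.24, 0.12 and 0.1 against 8.43, 72 and 36.3, so that the 3 peripheral libraries differed widely among themselves. COL9A1, a collagen gene of the vitreous, measured 0.97, 4.42, 0.82 and 0.36 against 26.4, 27 and 19.2. COL2A1, another, measured 1.79, 0.75, 0.56 and 1.1 against 10.2, 20.9 and 19.8. COL2A1, ZIC1 and ZIC2 shared with OPTC their lowest peripheral value in replicate 1, while COL9A1 and BMP4 did not. AZGP1, a secreted zinc-binding glycoprotein, measured 1.89, 19, 0.96 and 11 against 76.3, 37.1 and 37.6, with central replicates 2 and 4 far above the other central ones.

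Pigment cell genes lay on the same side. Of 11 tested pigment epithelium genes, 9 were lower (81.8%, background 8.76%) and 1, MITF, higher (9.09%, background 12.5%), with a median of −1.33. RPE65 (sharing a name start) did not pass, at 5.645 ± 0.915 against 6.89 ± 0.658 (limma adjusted p = 0.185). It measured 224 and 268 in whole retina, so its regional values may be exchanged between names. Of 9 melanin synthesis genes, 7 were lower (77.8%, background 8.76%) and 0 higher by limma (8 and 0 at an unadjusted p under 0.05), with a median of −1.54. MITF, the master regulator of pigment cells, averaged 6.33 ± 0.495 against 3.65 ± 0.372 and was named after its values were seen. Its call was lost without central replicate 3 or 4 or peripheral replicate 2 or 3, with limma adjusted p reaching 0.0701 without peripheral replicate 3. The pigment epithelium list summed to 274.3 to 404 in the central and 756.6 to 1115 in the peripheral libraries, and the melanin list to 20.35 to 40.21 in the central and 88.6 to 110.7 in the peripheral libraries. RLBP1 weighs heavily in the pigment epithelium sums, at 191, 221, 202 and 185 in the central and 459, 356 and 517 in the peripheral libraries. RLBP1 and RGR also stand in the Müller glia list, so the sums of these lists are not independent. GPNMB, a glycoprotein of pigment granules, measured 0.65, 1.23, 0.73 and 0.88 against 12.8, 15.4 and 13.7, a close band in each region. SILV, the structural protein of the granules now called PMEL, measured 0.12, 0.16, 0.12 and 0.23 against 9.6, 3.43 and 2.92. ENPP2, an enzyme that makes lysophosphatidic acid, measured 6.26, 18.3, 7.47 and 9.31 against 46.7, 51.5 and 56.9. Central replicate 2 held the highest central value of TTR, RDH5, RGR, ENPP2, COL9A1, BMP4 and AZGP1. Summed marker levels of pigment and ciliary cells thus moved with the region, and their part in the Müller glia, Wnt, BMP and retinoic acid values above was not tested.

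**Figure D5:**
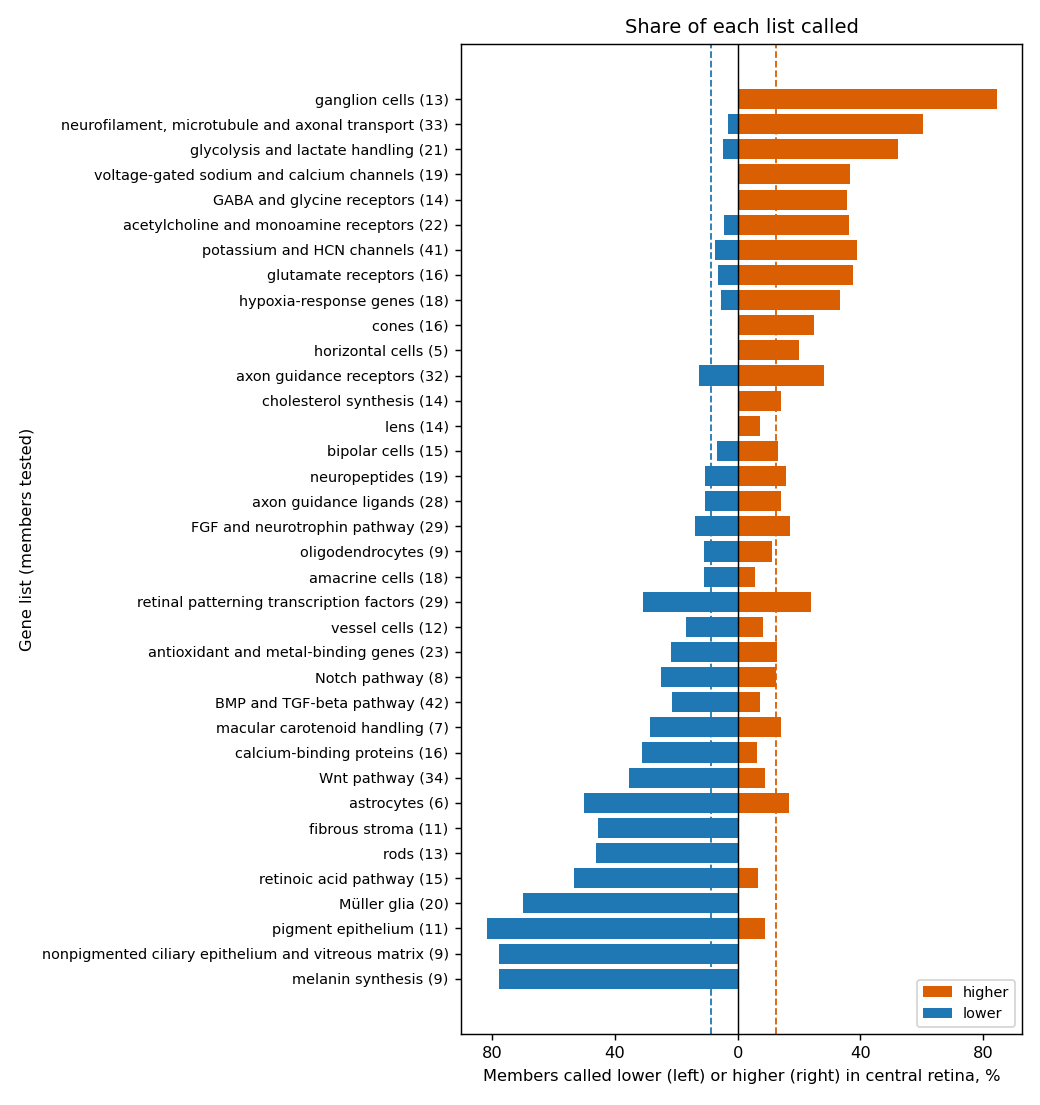
Share of tested members called higher (orange, to the right) and lower (blue, to the left) in central retina for 36 of the 38 gene lists, in percent, sorted by the difference of both shares; dashed lines give the background over all genes, 12.5% higher and 8.76% lower. Ganglion cell genes stand at one end with 84.6% higher, and the melanin, ciliary, pigment epithelium and Müller glia lists at the other with 70.0% to 81.8% lower. The microglia and muscle lists, with 0 calls, are not drawn.

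Of the microglia, muscle, vessel, lens and stroma lists, for other cells that the samples could hold, that of stroma had the highest share called, on the lower side. Of 8 microglia genes limma called 0, and an unadjusted p under 0.05 gave 0 higher and 1 lower. Of 6 muscle genes limma called 0, and an unadjusted p under 0.05 gave 0 as well. Microglia genes summed to 27.98 to 47.99 in the central and 46.31 to 61.2 in the peripheral libraries, and muscle genes to 5.72 to 7.3 against 5.25 to 5.62. Of 12 vessel genes, KCNJ8 was higher (8.33%, background 12.5%) and SLCO1A2 and KDR lower (16.7%, background 8.76%), and none of these 3 calls was kept in every fit with a library left out. KDR, the main receptor of VEGF on endothelium, measured 33, 36.8, 25.6 and 28.4 against 55.5, 44.5 and 36.9. Of 14 lens genes, CRYBA2 alone was called (7.14%, background 12.5%), higher in central retina, at 8.52, 7.11, 11 and 16.4 against 1.63, 1 and 2.7. The lens list, CRYBA2 included, summed to 15.36 to 28.23 against 9.73 to 16.43, and its median difference was −0.02. Of 11 stroma genes, 5 were lower (45.5%, background 8.76%) and 0 higher by limma (7 and 0 at an unadjusted p under 0.05), and the list summed to 27.04 to 42.16 against 60.9 to 73.87. Without central replicate 4 or peripheral replicate 1 or 2, 3 stroma genes were lower. No member of the microglia, muscle, vessel, lens and stroma lists was listed at 0 in all 7 libraries.

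The naming rule for large differences also brought up genes outside the lists. SYT2, a calcium sensor of fast synaptic vesicle release, measured 57.5, 62.6, 66.5 and 69.7 in the central and 19.1, 10.6 and 13.9 in the peripheral libraries. LGI3, a secreted neuronal protein, measured 55.2, 46.9, 56.5 and 80.4 against 16.1, 9.87 and 13.5. TMSB10, a thymosin that binds actin, measured 30.4, 66.6, 68.7 and 80.3 against 15.2, 11.6 and 13.6, with central replicate 1 well below the other central libraries. CHAC1, an enzyme that breaks down glutathione, averaged 23.5 ± 7.75 against 4.31 ± 1.49, KRT7, a keratin, averaged 19.8 ± 6.58 against 3.74 ± 1.21, and N4BP3, which bears on neurite branching, averaged 23 ± 3.53 against 4.81 ± 0.831. On the lower side PRSS35, a serine protease relative, measured 18.6, 24.4, 12.8 and 12.9 against 72, 55.7 and 75, and the open reading frame C13H2orf40 averaged 10.3 ± 3.43 against 43.9 ± 6.57. Of the 30 genes named for the largest differences, 29 kept their call whichever library was left out. The exception was ECEL1, a peptidase of neurons, which measured 28, 15.1, 31.7 and 21.5 against 89.8, 69.2 and 89.2 and had a limma adjusted p of 0.0383. Its call was lost in all 7 fits with a library left out, with limma adjusted p reaching 0.104 without peripheral replicate 1. ECEL1 measured 109 and 31.6 in whole retina and 6.68 and 42.5 in whole eye, and these libraries entered its variance estimate.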

How the data were processed

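RNA was sequenced from whole eye, whole retina, central retina and peripheral retina, and 11 of the 15 samples had a table that was used here. Each table holds 1 normalized signal value per gene, deposited after a normalization by the authors whose method is not given in the sources used here. The submitters' processing notes name the aligner GSNAP and the counter HTSeq, without versions. Neither do these sources name a genome build or annotation, and no coordinates or sequences are printed. Of 13083 entries per table, 27 had no value and 61 exact duplicates were dropped, which left 12995. The 38 entries under a repeated name were tested but are not named singly.

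Groups came from the tissue in the labels. log2(value + 1) was fitted with limma 3.58.1 in R 4.3.3, with a variance trend, over all 11 tables in 4 groups, for genes whose mean reached 1 in some group. P-values were adjusted by Benjamini-Hochberg over 11933 genes. The fit was tested on simulated data. Depth in counts is unknown, so no counting interval is given. A name that begins with, or begins, another name in the table was marked, which holds for 2426 tested genes.

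The 38 gene lists, their members and the rod and cone pairs were chosen with earlier results of these data known. Genes named are the 15 largest differences in each direction among called genes without overlap, without a shared name start and with a mean of 10 or more in the group where they are higher; from each list up to 6 called members by smallest p and up to 3 that did not pass by highest mean; and all rod and cone pair genes. Exceptions are said to be named after their values were seen. Alternatives were other pseudocounts, filters, scalings and library subsets, the replicate block and each library left out. Some genes and pairs that these rules would name are not reported here.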

Additional observations from a re-analysis of the deposited data

Results flagged for a closer look

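Among the 189 genes named and checked, 13 had 1 central library set apart from the other 3 by Dixon's test. Chance flags about 1 in 20 such groups, and groups of 3, here the peripheral one, are not tested. Central replicate 4 stood apart in ALDOC (1851), BMPR1B (1.7), GABBR1 (72.5), KIF5A (178), NEFM (391) and WIF1 (142.5). Central replicate 2 stood apart in CALB1 (156), COL9A1 (4.42), GRIA1 (5.17), KCNJ13 (2.71) and RPE (33.5), the last 2 sharing a name start. Central replicate 3 stood apart in ALDH1L1 (1.56), and central replicate 1 in CACNA1F (94.03). CALB1 and CACNA1F were not called. The other 11 genes kept their call under each of the alternatives run that still tested them, that library left out included.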

How the results depend on the processing

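Leaving out 1 library at a time gave 1328 to 2889 calls in all, 829 to 1503 higher and 499 to 1386 lower, the lowest each time without peripheral replicate 2 and the highest without central replicate 2. Without central replicate 4 there were 1654 calls in all. Under the other alternatives no count of higher or lower calls moved by over 1.5 times. Among the 189 genes named and checked, no direction reversed in the alternatives run where either fit passed the threshold. Calls were lost for 32 without peripheral replicate 2, 27 without peripheral replicate 3, 27 with the replicate block, 7 under quantile normalization and 6 with a pseudocount of 5. Quantile normalization and median scaling left the median difference of all genes at −0.018 and −0.016, and of the 38 list medians that of the lens list changed sign, from −0.021 to 0.024 under quantile normalization.

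The labels give no pairing beyond the replicate number, and deviations of same-numbered central and peripheral libraries correlated at −0.138, −0.061 and 0.357, so the numbers were not taken to pair the samples. With the replicate number as a block, on replicates 1 to 3, 1078 genes were higher and 717 lower, and the same 6 libraries without the block, an alternative chosen after seeing the data, gave 1285 and 780. Of the 3 central replicates concerned, 1 correlated best with its own number, while central replicate 1 correlated best with peripheral replicate 2 (0.363) and central replicate 2 with peripheral replicate 1 (0.347). The block therefore does not test a pairing across different numbers, which was not fitted.

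Depth in counts is unknown, and 3 peripheral libraries limit the precision of every comparison.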

Other observations

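Several genes that share a name start had values that appear exchanged between names in part of the libraries. FAIM measured 50.01, 67.1, 58.5 and 47.4 against 0.06, 0.03 and 0.1, while FAIM3 measured 0.03, 0.04, 0.05 and 0.08 against 27.4, 33.2 and 26.4. In whole retina FAIM measured 28.2 and 1.32 and FAIM3 6.74 and 23.7 in replicates 1 and 2. RPE measured 9.9, 33.5, 11.1 and 8.35 against 100.5, 57.4 and 47.6 and RPE65, the visual cycle isomerase, 4.48, 6.35, 5.35 and 6.4 against 7.01, 7.48 and 6.18, whereas both whole retina libraries had RPE65 at 224 and 268. SLC25A31 was high in 2 of the 3 peripheral libraries, at 0.25, 0.54, 0.28 and 0.2 against 173, 163 and 0.7, and near 0 in whole retina, at 0.09 and 0.42. GPR146 measured 13.2, 12.2, 17.4 and 15.4 against 0.88, 7.95 and 0. RBBP8, whose name shares no start, measured 19.6, 43.8, 35 and 11.5 against 88.3, 57 and 88.5 and 30.2 and 39.9 in whole retina. All were chosen after their values were seen.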
